A study of Mus musculus with 12 samples.

Results

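The 10 immediate early genes described here are Fos, Fosb, Fosl1, Jun, Junb, Egr1, Atf3, Ier2, Ier3 and Nab2. They were chosen by name from the 24421 genes measured by RNA sequencing of mouse prostates and a tumor. All 10 were in the files, and 9 passed a mean of 0.5 FPKM over the 12 libraries, the filter for testing. Fosl1 did not pass. FPKM is a fragment count divided by transcript length and library total.

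Immediate early genes are transcribed within minutes of a growth factor, stress or injury signal, without the need for new protein, and their messages decay fast. Fos, Fosb and Fosl1 proteins pair with Jun or Junb to form the AP-1 transcription factor. Egr1 is a zinc finger factor of the same wave and Nab2 is a corepressor that binds it. Atf3 is a stress-induced factor related to the Fos and Jun proteins. The stress of tissue excision is known to induce immediate early genes as well, and replicates are therefore set beside group differences throughout.

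The prostates came from TRAMP mice (C57BL/6-Tg(TRAMP)8247Ng/J), which carry the SV40 T antigens under the rat probasin promoter, active in prostate epithelium, or from wild type C57BL/6 mice. At 24 weeks of age there were 1 tumor library from a TRAMP mouse on control diet (lobe unknown), 2 libraries of TRAMP mice fed 0.05% (w/w) phenethyl isothiocyanate (PEITC), 2 of TRAMP mice on the control AIN93M diet and 2 of wild type mice on control diet. At 16 weeks there were 2 libraries of PEITC-fed TRAMP mice, 2 of control-diet TRAMP mice and 1 of a wild type mouse on control diet. The 11 prostate libraries were of ventral and dorsolateral lobes, frozen in liquid nitrogen. The labels do not say how many animals made a library, so p-values measure only the spread between these libraries, and the tumor and the 16-week wild type values carry no error.

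Relative depth, read from the smallest steps between low values, ranged from 0.635 to 1 of the deepest library, and 17113 to 18505 genes were above 0. Absolute depth is unknown. Prostate secretory genes were present in all 12 libraries: Sbp ranged from 696.6 to 16412 FPKM and Pbsn from 15.5 to 1835 FPKM, with the wild type libraries highest, and 10 luminal epithelial markers summed to 2705.4 to 3247.0 FPKM. The 16-week wild type library stood apart in its seminal vesicle genes, whose 8 listed members summed to 8281.5 FPKM, against 2.9 to 36.1 FPKM in the other libraries. In whole tissue, fewer cells of a type and less RNA per cell cannot be told apart.

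Promoter sequence is shown for the 5 AP-1 and ATF genes with an entry in the set of RefSeq promoter windows used here (GRCm38.p6). Fosl1, Egr1 and Ier2 had no entry in that set. The 5 are shown since their products pair and 4 of the windows hold the core of the cyclic AMP response element. Each run is the 150 bases before the RefSeq start, 5′ to 3′ on the gene's strand. The Atf3 window lies inside the span of that gene in the GENCODE M21 annotation (191170296 to 191218039). Its RefSeq start is thus not the outermost start annotated there. Capitals mark TGACG or its reverse complement CGTCA, the TATA box letters TATAAA, and in Jun the AP-1-like TGACATCA.
Fos, chr12:85473740-85473889, plus strand: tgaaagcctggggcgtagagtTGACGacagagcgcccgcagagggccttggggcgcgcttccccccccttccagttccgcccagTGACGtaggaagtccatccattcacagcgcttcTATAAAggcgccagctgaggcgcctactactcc
Fosb, chr7:19310046-19310195, minus strand: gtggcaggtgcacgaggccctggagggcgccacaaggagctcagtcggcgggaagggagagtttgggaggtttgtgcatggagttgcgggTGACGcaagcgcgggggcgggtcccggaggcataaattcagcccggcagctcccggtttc
Jun, chr4:95052223-95052372, minus strand: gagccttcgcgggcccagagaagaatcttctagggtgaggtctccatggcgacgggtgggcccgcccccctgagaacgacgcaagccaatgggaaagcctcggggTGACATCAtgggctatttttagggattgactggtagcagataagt
Junb, chr8:84978749-84978898, minus strand: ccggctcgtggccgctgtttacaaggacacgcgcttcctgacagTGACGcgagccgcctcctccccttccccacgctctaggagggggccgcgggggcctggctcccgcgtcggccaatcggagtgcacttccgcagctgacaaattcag
Atf3, chr1:191183334-191183483, minus strand: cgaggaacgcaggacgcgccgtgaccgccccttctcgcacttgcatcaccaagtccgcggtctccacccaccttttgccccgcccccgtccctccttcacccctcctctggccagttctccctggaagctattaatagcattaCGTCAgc
Of the 7 members with an entry in that set (the others are Ier3 and Nab2), 4 held TGACG on either strand. The share was 13.32% over all 32851 windows of the same length in it. Fos held it at 129 and 66 bases before the start, Junb at 106, Fosb at 60 and Atf3 at 7 on the opposite strand. TGACATCA stood in 1 member window, that of Jun, and in 2.32% of all windows, and TATAAA in 1 member window, that of Fos, and in 7.57% of all. TGACATCA holds neither of the other letter strings, and a match is a description of letters, not of binding.

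The levels differed widely between members and between libraries. Ier2, a nuclear early response gene (ENSMUSG00000053560.4, chromosome 8, 84661331 to 84662852 in GENCODE M21 on GRCm38, the mm10 assembly), and Junb (ENSMUSG00000052837.6, chromosome 8, 84974484 to 84978718) had the highest FPKM of the 10, with means of 67.1 and 67.0 over the 12 libraries. Next by mean FPKM came Jun (30.4), Nab2 (27.0), Egr1 (22.1), Atf3 (19.3), Ier3 (15.8), Fos (10.1), Fosb (1.33) and Fosl1 (0.0385). Fos (ENSMUSG00000021250.13, chromosome 12, 85473890 to 85477273) spanned 0.818 to 22.8 FPKM, a 27.9-fold range, and Egr1 (ENSMUSG00000038418.7, chromosome 18, 34859823 to 34864984) spanned 2.79 to 42.3 FPKM, a 15.2-fold range. Annotated genes overlap 3 further members on the opposite strand, Junos for Jun, Prdx2 for Junb and Gm24748 for Atf3, and their fragments may not be told apart. Ier2 and Nab2 lay at the other end, with ranges of 1.42-fold and 1.63-fold.

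**Figure D1:**
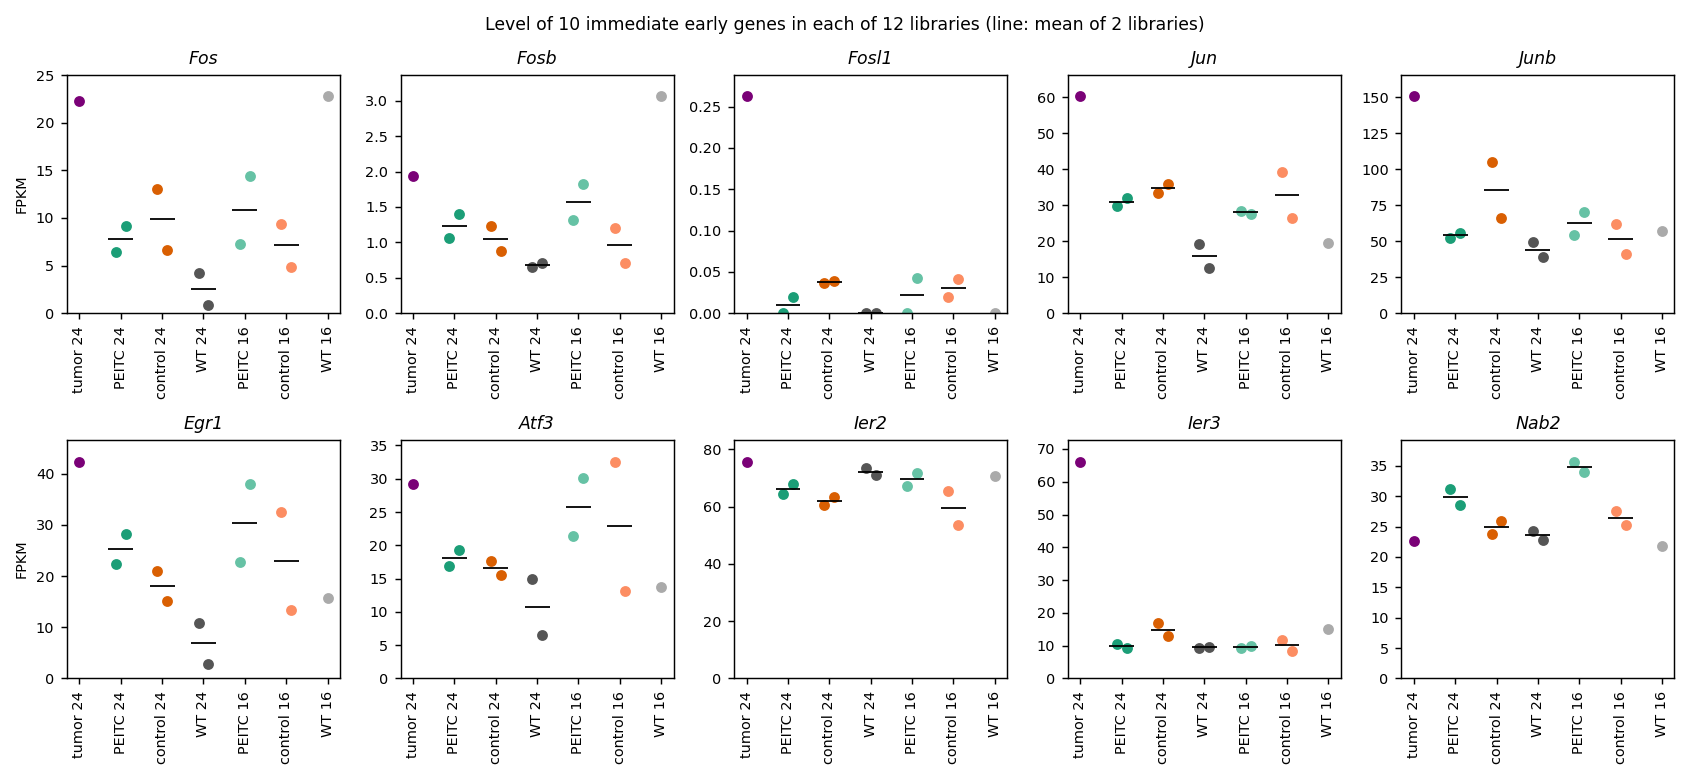
FPKM (linear axes from 0) of each immediate early gene in each library, grouped as tumor, PEITC-fed TRAMP, control-diet TRAMP and wild type at 24 weeks, then PEITC-fed TRAMP, control-diet TRAMP and wild type at 16 weeks; bars are means of 2 libraries. The tumor is the highest point for Fosl1, Jun, Junb, Egr1, Ier2 and Ier3, and the 16-week wild type library for Fos (22.8 FPKM) and Fosb (3.06 FPKM).

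Replicates of a group differed for Fos, Egr1, Atf3 and Junb, and in the same order. In PEITC-fed TRAMP prostates at 24 weeks, Fos stood at 6.40 FPKM in replicate 0 and 9.13 FPKM in replicate 1. Control-diet TRAMP prostates at that age had 13.1 FPKM in replicate 0 and 6.64 FPKM in replicate 2, and wild type prostates 4.21 FPKM in replicate 0 and 0.818 FPKM in replicate 1. At 16 weeks the PEITC-fed pair had 7.28 and 14.4 FPKM in replicates 0 and 1, and the control-diet pair 9.37 and 4.86 FPKM. In each of these 5 pairs the library with more Fos also had more Junb, more Egr1 and more Atf3. Among the other 13374 tested genes, 438 (3.28%) followed Fos in all 5 pairs, and among the 8 other tested members 3 did (37.5%).

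The sizes of these differences are in log2(FPKM + 1), as the library with more Fos minus the other. For Egr1 the difference ran from 0.32 in the 24-week PEITC pair to 1.65 in the 24-week wild type pair, and for Atf3 from 0.17 to 1.25. Junb differed by 0.11 to 0.67. Fosb and Ier2 followed Fos in 4 of 5 groups, Jun and Ier3 in 3 and Nab2 in 2. Of 36 other tested immediate early genes, 11 followed Fos in all 5 groups (30.6%): Egr2, Klf6, Klf10, Zfp36, Rhob, Gadd45b, Socs3, Maff, Plk3, Cebpb and Cebpd, named after their values were seen. The pattern was in 1 of 11 other AP-1 genes, which was Maff, already counted above. It was in 0 of 13 heat shock genes and 0 of 24 genes of the ERK and SRF pathways that signal to early genes. Lists of this size hold 1 gene or fewer at the share of 3.28% over all genes, so these counts are near it.

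The within-group standard deviation over all groups on the log2(FPKM + 1) scale was 0.71 for Egr1, 0.69 for Fos and 0.55 for Atf3, the 99.1st, 99.1st and 98.0th percentiles of all tested genes, whose median was 0.10. Set beside the 500 genes nearest in mean level, these 3 stayed at the 98.6th to 99.6th percentile, and Junb (SD 0.32) and Jun (SD 0.26) stood at the 98.0th and 95.4th. Fosb (49.2nd), Nab2 (40.6th) and Ier2 (72.8th) varied between replicates nearer to the middle of genes of like level, and Ier3 stood at the 89.8th percentile. Cell type markers also differed within pairs. Summed macrophage, fibroblast, T and NK cell and adipocyte markers were each higher in the library with more Fos in 4 of 5 pairs. The exception was control-diet TRAMP at 24 weeks. Neutrophil markers were also higher in 4 pairs, and endothelial and skeletal muscle markers in 3. Luminal, basal, smooth muscle and seminal vesicle markers were higher in 2. In control-diet TRAMP prostates at 16 weeks macrophage markers summed to 296.7 FPKM in the library with more Fos and 119.6 FPKM in the other, and fibroblast markers to 252.4 and 96.8 FPKM. At 24 weeks macrophage markers stood at 175.1 and 398.8 FPKM in that order. The labels and files used here give no time from death to freezing and no RNA quality value, so the part of tissue handling, like that of these cells, was not tested.

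**Figure D2:**
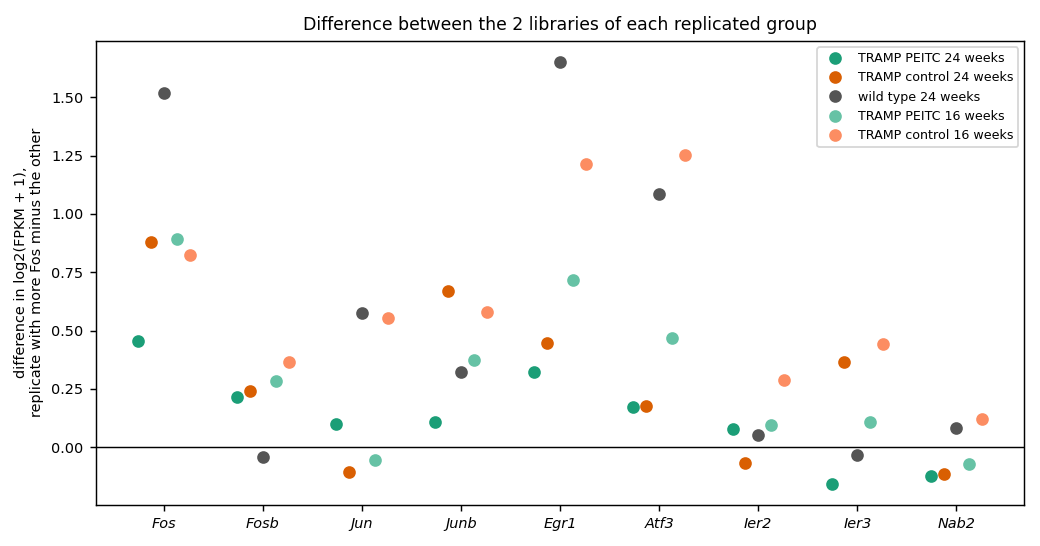
For 9 genes, the difference in log2(FPKM + 1) between the libraries of each replicated group, with the library that had more Fos first (so Fos is above 0 by construction). Junb, Egr1 and Atf3 are above 0 in all 5 groups, whereas Nab2 is above 0 in 2.

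The comparison of TRAMP with wild type prostates at 24 weeks asks what the transgene changes at the later age. Fos, Jun, Junb and Ier3 rose in TRAMP prostates, 4 of 9 tested members, where 45% of all 13375 tested genes passed in either direction, 23% higher and 22% lower (limma, adjusted p under 0.05). Jun, the main partner of Fos in AP-1 (ENSMUSG00000052684.4, chromosome 4, 95049034 to 95052222), had 33.3 and 35.99 FPKM in TRAMP prostates, against 19.1 and 12.5 FPKM in wild type prostates. Both TRAMP libraries lay above both wild type libraries. The log2 fold change of FPKM + 1 was 1.11 (SE 0.21, limma adjusted p = 0.00383), with means of 34.6 ± 1.90 and 15.8 ± 4.67 FPKM (SD, n = 2 each).

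Fos had 13.1 and 6.64 FPKM in TRAMP prostates, against 4.21 and 0.818 FPKM in wild type prostates, which did not overlap. Its log2 fold change was 1.75 (SE 0.55, limma adjusted p = 0.0336). Junb, which pairs with Fos like Jun but is a weaker activator at many sites, had 105.3 and 65.9 FPKM in TRAMP prostates and 49.2 and 39.1 FPKM in wild type prostates (log2 fold change 0.91, SE 0.26, adjusted p = 0.0228). Ier3, a stress-induced gene with roles in cell survival (ENSMUSG00000003541.6, chromosome 17, 35821684 to 35822923), had 16.9 and 12.9 FPKM in TRAMP prostates and 9.44 and 9.67 FPKM in wild type prostates (log2 fold change 0.58, SE 0.16, adjusted p = 0.0213). The groups did not overlap for these genes either.

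The calls other than Jun rested on single libraries. Without TRAMP control replicate 0, the library with the most Fos and Junb among 24-week prostates, 1 member passed: the log2 fold change was 1.31 for Fos (adjusted p = 0.160), 0.58 for Junb (0.121) and 0.40 for Ier3 (0.116). Without wild type replicate 1, the library with the least Fos of the 12, 1 member passed again: it was 0.99 for Fos (0.195), 0.75 for Junb (0.126) and 0.60 for Ier3 (0.0754). Without wild type replicate 0, Ier3 gave adjusted p = 0.0797, and Egr1 passed at 2.32 (0.0137). Without TRAMP control replicate 2, 4 members passed, and Jun passed in all 4 of these fits, at 0.82 to 1.398. Fitted on only the 4 libraries compared, Fos gave adjusted p = 0.0743.

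Egr1 stood at 21.1 and 15.2 FPKM in TRAMP prostates, against 10.9 and 2.79 FPKM in wild type prostates. The groups were separate, but the log2 fold change of 1.49 (95% interval 0.18 to 2.80) did not pass adjustment (limma adjusted p = 0.0634), and it ran from 0.66 without wild type replicate 1 to 2.32 without wild type replicate 0. Atf3 (ENSMUSG00000026628.13, chromosome 1, 191170296 to 191218039) was at 17.6 and 15.5 FPKM in TRAMP prostates and 15.0 and 6.54 FPKM in wild type prostates (0.68, adjusted p = 0.246), and its value ran from 0.13 to 1.22 without the same libraries. Fosb (ENSMUSG00000003545.3, chromosome 7, 19302696 to 19310051) was at 1.23 and 0.882 FPKM in TRAMP prostates and 0.657 and 0.704 FPKM in wild type prostates (0.28, adjusted p = 0.209).

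Ier2 had 60.4 and 63.3 FPKM in TRAMP prostates and 73.5 and 70.8 FPKM in wild type prostates, the one member whose TRAMP libraries both lay lower (log2 fold change -0.22, adjusted p = 0.0844). Nab2 (ENSMUSG00000025402.12, chromosome 10, 127660918 to 127668568) had 23.8 and 25.9 FPKM in TRAMP prostates and 24.3 and 22.9 FPKM in wild type prostates, and these overlapped (0.07, 95% interval -0.10 to 0.25). In all, 7 of 9 tested members had non-overlapping higher values in TRAMP prostates, against 36.7% of tested genes, and 1 had lower ones, against 36.5%. The median log2 fold change was 0.68 over the tested members and -0.00 over all tested genes.

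Cell type markers moved between these groups. Summed over 9 macrophage markers, FPKM was 175.1 to 398.8 in TRAMP prostates and 69.0 to 77.8 in wild type prostates, and over 10 smooth muscle markers it was 339.4 to 401.0 and 890.8 to 938.1 FPKM in the same order. T and NK cell markers, 8 genes, summed to 58.8 to 72.8 FPKM in TRAMP prostates and 20.3 to 22.8 FPKM in wild type prostates. Basal epithelial markers summed to 67.1 to 73.1 FPKM in TRAMP prostates and 144.3 to 171.1 FPKM in wild type prostates, and 8 skeletal muscle markers to 17.3 to 19.9 and 35.0 to 37.6 FPKM. All the macrophage, smooth muscle, T and NK cell and basal markers in the files were above 0 in all 12 libraries. Their part in the early gene differences was not tested.

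At 16 weeks the same comparison had 2 TRAMP libraries and 1 wild type library, and Fosb fell in TRAMP prostates. Fosb had 1.21 and 0.713 FPKM in TRAMP prostates, against 3.06 FPKM in the wild type library (log2 fold change -1.06, SE 0.21, limma adjusted p = 0.00673). It was the 1 member called of 9, where 33.6% of tested genes were called in either direction and 15.4% lower. Values did not overlap upward for 2 members, against 44.2% of tested genes, and downward for 4, against 40.4%. Fos had 9.37 and 4.86 FPKM in TRAMP prostates, below the 22.8 FPKM of the wild type library (-1.61, 95% interval -3.17 to -0.04, adjusted p = 0.103).

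Jun lay the other way, with 39.3 and 26.5 FPKM in TRAMP prostates and 19.6 FPKM in the wild type library (0.69, adjusted p = 0.0711). Ier3 was at 11.8 and 8.43 FPKM in TRAMP prostates and 15.1 FPKM in the wild type library (-0.55, adjusted p = 0.0655). Nab2, at 27.5 and 25.2 FPKM in TRAMP prostates and 21.9 FPKM in the wild type library, gave 0.26 (adjusted p = 0.0631). For Junb, Egr1 and Atf3 the wild type value of 57.1, 15.8 and 13.8 FPKM lay between the TRAMP libraries, which had 62.2 and 41.3 FPKM of Junb, 32.4 and 13.4 FPKM of Egr1 and 32.6 and 13.1 FPKM of Atf3.

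These results turned on the lone wild type library. Against the 24-week wild type libraries, the log2 fold change of Fosb was 0.21 and that of Fos 1.34 (adjusted p = 0.0853), and 3 members passed: Jun at 1.01, Egr1 at 1.71 and Ier2 at -0.28. Without TRAMP control replicate 0 at 16 weeks, Ier2 (-0.40) and Ier3 (-0.77) also passed, and without replicate 1 Jun passed at 0.97. The 16-week wild type library was the one with the seminal vesicle genes, and summed smooth muscle markers were 346.4 to 421.5 FPKM in the 16-week TRAMP control libraries and 1064.9 FPKM in it. Basal markers summed to 54.6 to 65.1 FPKM in those TRAMP libraries and 167.9 FPKM in the wild type library, T and NK cell markers to 49.2 to 59.4 and 12.9 FPKM, and skeletal muscle markers to 17.7 to 29.3 and 84.9 FPKM. Their part in the Fos and Fosb differences was not tested.

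The TRAMP effects at the 2 ages, which share no library, were also set against each other. The TRAMP effect on Fos was 3.36 log2 units higher at 24 than at 16 weeks (SE 0.87, limma adjusted p = 0.171), that on Fosb 1.35 (SE 0.27, adjusted p = 0.120) and that on Ier3 1.13 (SE 0.26, adjusted p = 0.142). By limma 0 of 9 members passed, with 4 at an unadjusted p under 0.05, as had 2108 of the 13375 tested genes, and 0.366% of tested genes were called, 0.329% higher and 0.0374% lower. The adjusted p therefore does not separate the ages, although for Fos, Fosb and Ier3 all libraries lay higher in TRAMP at 24 weeks and lower at 16 weeks.

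**Figure D3:**
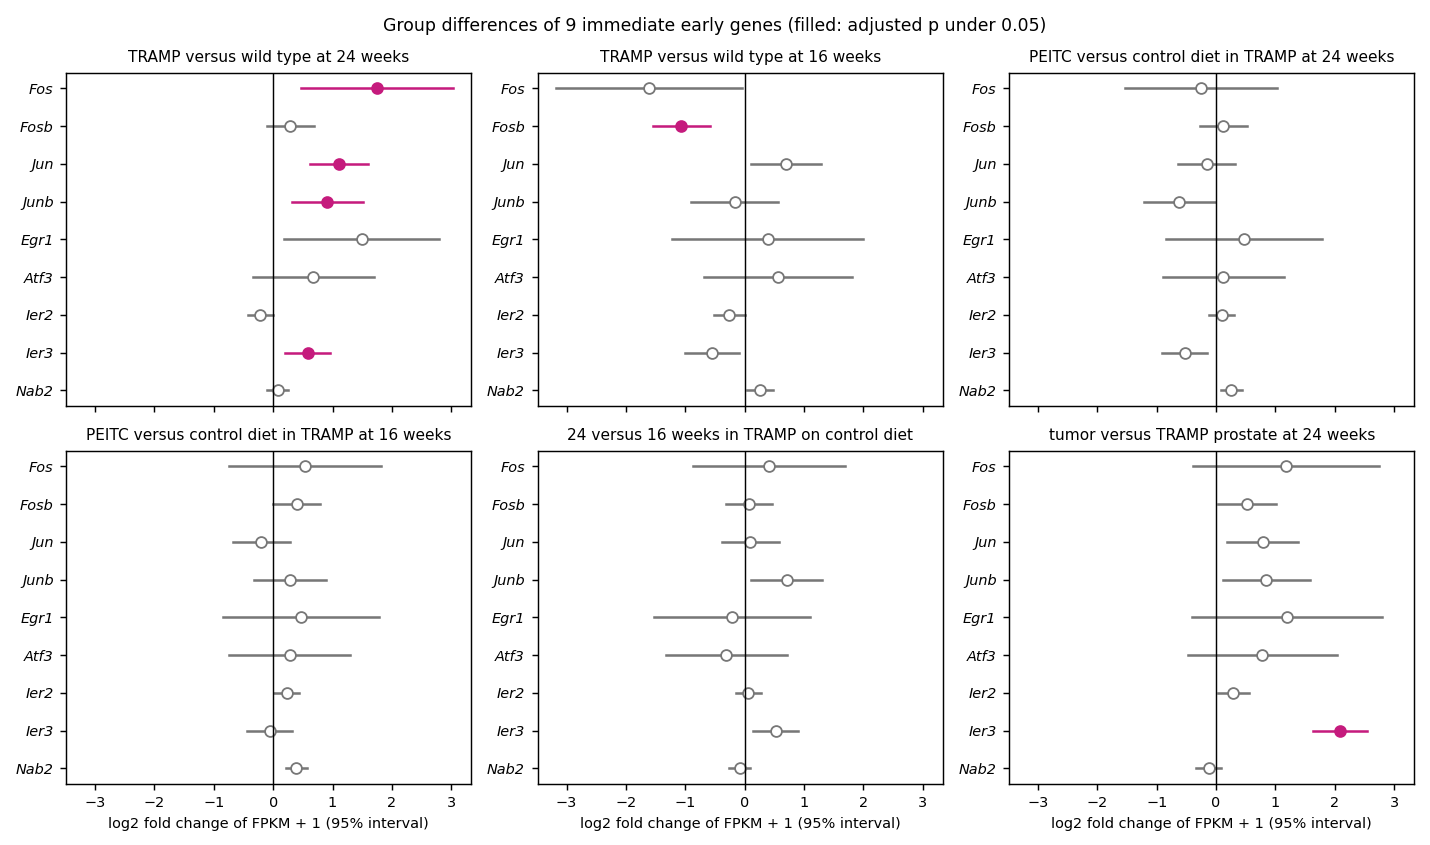
Log2 fold changes of FPKM + 1 with 95% intervals (limma) for 9 immediate early genes in 6 comparisons; filled points passed an adjusted p under 0.05. Filled points are Fos, Jun, Junb and Ier3 for TRAMP against wild type at 24 weeks, Fosb at 16 weeks (-1.06) and Ier3 in the tumor (2.09).

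The tumor was compared with the control-diet TRAMP prostates of its age to ask what sets an overt tumor apart. Ier3 rose, to 66.2 FPKM in the tumor, against 16.9 and 12.9 FPKM in TRAMP prostates. The next highest of the 12 libraries was the 16.9 FPKM, and the log2 fold change was 2.09 (SE 0.20, limma adjusted p = 0.00239). Ier3 was the 1 member called of 9, where 11.8% of tested genes were called, 5.59% higher and 6.17% lower. The fit takes the spread of the replicated groups for the tumor, and on only these 3 libraries Ier3 gave adjusted p = 0.117.

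Jun, Junb and Egr1 were also highest of the 12 libraries in the tumor, without passing. Junb was at 150.8 FPKM in the tumor and 105.3 and 65.9 FPKM in TRAMP prostates (log2 fold change 0.85, adjusted p = 0.128), and Jun at 60.3 FPKM, against 33.3 and 35.99 FPKM (0.78, adjusted p = 0.0904). Egr1 was at 42.3 FPKM in the tumor and 21.1 and 15.2 FPKM in TRAMP prostates (1.199, adjusted p = 0.303), and Fos at 22.3 FPKM, against 13.1 and 6.64 FPKM (1.17, adjusted p = 0.302). Fosb gave 0.52, Atf3 0.78 and Ier2 0.29, and these 3 also lay above both prostates in the tumor. Nab2, the Egr1 corepressor, was at 22.7 FPKM in the tumor and 23.8 and 25.9 FPKM in TRAMP prostates (-0.13, 95% interval -0.34 to 0.09). In count, 8 of 9 tested members lay above both TRAMP prostates, against 38.5% of tested genes, and 1 lay below both, against 41%. Their median log2 fold change was 0.78, against -0.01 for all tested genes.

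Fosl1, which encodes the Fos-related antigen Fra-1 (ENSMUSG00000024912.6, chromosome 19, 5447547 to 5455946), was nearly absent outside the tumor. It stood at 0.263 FPKM in the tumor, at 0 to 0.0430 FPKM in TRAMP prostates and at 0 in all 3 wild type libraries. Scaled by relative depth, the tumor value was 10.01 times the smallest step seen for the gene, and the other values above 0 were 1 or 2 times it, so the tumor value rests on about 10 fragments if that step is 1 fragment. Fosl1 overlaps Ccdc85b on the opposite strand, and the strand setting of the counting is not given in the sources used here. Neutrophil markers also stood highest in the tumor, at 5.5 FPKM summed over 6 genes, of which Cxcr2 was under 0.1 FPKM in all libraries, against 0.8 to 0.9 FPKM in TRAMP prostates. Endothelial markers were at 35.0 FPKM in the tumor and at most 16.1 FPKM in TRAMP prostates over 8 genes. The part of these cells was not tested.

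PEITC was compared with control diet within TRAMP mice at each age, the comparison that bears on the compound. By limma 0 of 9 members passed at 24 weeks and 0 at 16 weeks, with 3 at an unadjusted p under 0.05 at each age. Among all genes, 0% were called at 24 weeks and 0.00748% at 16 weeks, with 1267 and 1347 of 13375 at an unadjusted p under 0.05. Fos had 6.40 and 9.13 FPKM under PEITC at 24 weeks, against 13.1 and 6.64 FPKM under control diet, and these overlapped (log2 fold change -0.26, 95% interval -1.54 to 1.02). At 16 weeks it had 7.28 and 14.4 FPKM under PEITC, against 9.37 and 4.86 FPKM under control diet (0.53, 95% interval -0.74 to 1.81). The 24-week interval reaches past a 2-fold change in both directions, and the 16-week interval past a 2-fold rise. Effects of that size on Fos are therefore not excluded in those directions.

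Nab2 had the smallest unadjusted p of the members at both ages. It stood at 31.1 and 28.5 FPKM under PEITC at 24 weeks, against 23.8 and 25.9 FPKM under control diet (0.25, 95% interval 0.08 to 0.43, limma adjusted p = 0.473). At 16 weeks it was at 35.7 and 33.9 FPKM under PEITC and 27.5 and 25.2 FPKM under control diet (0.39, 95% interval 0.21 to 0.56, adjusted p = 0.438). The groups were separate at both ages, as were higher values for 23.7% and 21% of tested genes. Nab2 overlaps Stat6 and Nemp1 on the opposite strand, so its value could hold fragments of either. Basal epithelial markers, 8 genes, summed to 82.6 to 86.0 FPKM under PEITC at 16 weeks and 54.6 to 65.1 FPKM under control diet, without overlap, and smooth muscle markers to 402.5 to 778.3 and 346.4 to 421.5 FPKM in the same order, with overlap. The part of either was not tested.

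Junb and Ier3 lay lower under PEITC at 24 weeks. Junb had 52.0 and 56.0 FPKM under PEITC, against 105.3 and 65.9 FPKM under control diet (-0.62, adjusted p = 0.524), and Ier3 10.5 and 9.33 FPKM, against 16.9 and 12.9 FPKM (-0.53, adjusted p = 0.474). At 16 weeks Junb had 54.3 and 70.6 FPKM under PEITC and 62.2 and 41.3 FPKM under control diet (0.28), and Ier3 9.17 and 9.94 FPKM under PEITC and 11.8 and 8.43 FPKM under control diet (-0.06), so these overlapped. Without control-diet replicate 0 at 24 weeks the values there were -0.28 for Junb and -0.35 for Ier3, and without replicate 2 they were -0.95 and -0.71. Jun was also lower in both PEITC libraries at 24 weeks, by 0.16 on the log2 scale. These were the 3 of 9 tested members with non-overlapping lower values at 24 weeks, against 20.8% of tested genes. Another 3 had higher ones, against 23.7%. The PEITC effect at 24 weeks minus that at 16 weeks was -0.90 for Junb (limma adjusted p = 0.369) and -0.47 for Ier3 (adjusted p = 0.420), and 0 of 9 members passed for this difference, with 1 at an unadjusted p under 0.05, as had 1720 of 13375 tested genes, and 0.00748% of tested genes called.

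Egr1 stood at 22.4 and 28.3 FPKM under PEITC at 24 weeks, against 21.1 and 15.2 FPKM under control diet, and at 22.7 and 37.9 FPKM at 16 weeks, against 32.4 and 13.4 FPKM. The groups were separate at 24 weeks and overlapped at 16 weeks. Its log2 fold change was 0.47 at both ages, with 95% intervals of -0.84 to 1.78. Fosb was higher in both PEITC libraries at 16 weeks, at 1.32 and 1.82 FPKM, against 1.21 and 0.713 FPKM under control diet (0.40, adjusted p = 0.493), and at 24 weeks was at 1.07 and 1.396 FPKM under PEITC and 1.23 and 0.882 FPKM under control diet. Ier2 was higher under PEITC at both ages, by 0.09 and 0.23 on the log2 scale. Atf3 gave 0.12 at 24 weeks and 0.28 at 16 weeks, with overlapping groups. Adipocyte markers differed between libraries of a group, at 32.3 to 397.8 FPKM summed over 8 genes under PEITC at 24 weeks and 81.2 to 258.1 FPKM under control diet, and their part was not tested.

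Between 24 and 16 weeks in control-diet TRAMP mice, 0 of 9 members passed, with 2 at an unadjusted p under 0.05, where limma called 0.00748% of tested genes and 2261 had an unadjusted p under 0.05. Junb had 105.3 and 65.9 FPKM at 24 weeks, against 62.2 and 41.3 FPKM at 16 weeks (0.71, adjusted p = 0.245). Ier3 had 16.9 and 12.9 FPKM at 24 weeks and 11.8 and 8.43 FPKM at 16 weeks (0.52, adjusted p = 0.211). With single libraries left out, the value ran from 0.37 to 1.04 for Junb, lowest without replicate 0 at 24 weeks, and from 0.30 to 0.74 for Ier3, lowest without replicate 1 at 16 weeks. These were the 2 members whose ages did not overlap, as higher values did not for 21.5% of tested genes and lower values for 24.8%. Fos (0.41), Fosb (0.07), Jun (0.10), Ier2 (0.06), Egr1 (-0.22), Atf3 (-0.31) and Nab2 (-0.08) overlapped between the ages.

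A further list of 40 immediate early genes, of which 36 passed the filter, was read from the same fits. The lists overlap, since Maff is also in the AP-1 family list and Dusp6 and Srf are also in the ERK and SRF list. In TRAMP prostates at 24 weeks 11 rose and 3 fell (median log2 fold change 0.31), against 23% and 22% of all tested genes, so the share that rose was near that of all genes. Socs3, a feedback inhibitor of cytokine signalling, averaged 8.08 FPKM in TRAMP and 1.47 FPKM in wild type prostates (1.80, adjusted p = 0.00489), and the Arc gene 4.9995 and 1.25 FPKM (1.44, adjusted p = 0.00708). The kinase gene Pim1 averaged 11.01 and 4.28 FPKM in the same order (1.19). Nr4a1, an early response nuclear receptor also called Nur77, fell, to 2.88 FPKM in TRAMP prostates, against 10.2 FPKM in wild type prostates (-1.55, adjusted p = 0.000331).

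At 16 weeks 4 of the 36 rose and 3 fell in TRAMP prostates, against 18.1% and 15.4% of all tested genes. Nr4a1 fell there too, to 3.58 FPKM in TRAMP prostates, against 17.0 FPKM in the wild type library (-1.98, adjusted p = 0.000534), and so did its relative Nr4a3 (-1.24) and the ERK phosphatase gene Dusp6 (-1.77). Gadd45b rose (0.75). In the tumor 7 of the 36 rose and 0 fell, against 5.59% and 6.17% of all tested genes. Socs3 was at 31.6 FPKM in the tumor and averaged 8.08 FPKM in TRAMP prostates (1.93, adjusted p = 0.0297), and the next in size were Klf10 (1.36), Ier5l (1.30) and Maff (1.13). The median over the list was 0.51, against -0.01 over all tested genes. By limma 0 of 36 passed for PEITC at 24 weeks, 0 for PEITC at 16 weeks and 0 for age. At an unadjusted p under 0.05 there were 6, 3 and 14 in that order, against 1267, 1347 and 2261 of all 13375 tested genes.

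**Figure D4:**
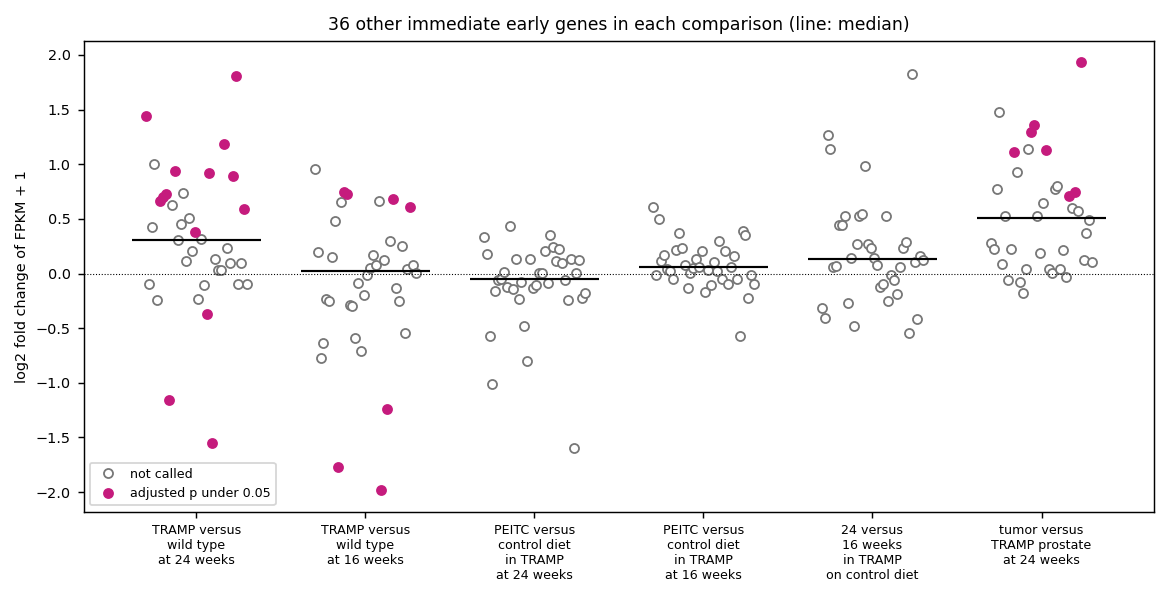
Log2 fold changes of FPKM + 1 of 36 other immediate early genes in 6 comparisons, with the median as a line and genes past an adjusted p under 0.05 filled. Filled points lie above 0 in the tumor (7 genes) and on both sides for TRAMP against wild type at 24 weeks (11 higher, 3 lower) and at 16 weeks (4 higher, 3 lower).

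Of 11 other AP-1 family genes tested, 2 rose and 1 fell in TRAMP prostates at 24 weeks, where 45% of all tested genes were called. Batf3 averaged 3.09 FPKM in TRAMP and 0.384 FPKM in wild type prostates (1.54, adjusted p = 0.00296), Fosl2, which encodes Fra-2, 18.6 and 11.8 FPKM (0.63, adjusted p = 0.0365), and Atf2 11.9 and 16.0 FPKM (-0.40). Fosl2 (0.998) and Maff also rose in the tumor, 2 of 11 where 11.8% of all tested genes were called. At 16 weeks Jund (-0.52) and Jdp2 (-1.002) fell, 2 of 11 where 33.6% of all tested genes were called. Of 24 ERK and SRF pathway genes, 3 rose and 9 fell in TRAMP prostates at 24 weeks, against 23% and 22% of all tested genes. The ERK target Etv4 averaged 0.258 FPKM in TRAMP and 1.47 FPKM in wild type prostates (-0.98), Dusp6, the phosphatase ERK induces against itself, 4.25 and 10.6 FPKM (-1.15), and Braf (-0.61) and Spred1 (-0.48) fell as well. At 16 weeks 1 rose and 5 fell, against 18.1% and 15.4% of all tested genes. In the tumor 2 rose and 0 fell, against 5.59% and 6.17%.

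A list of 13 heat shock genes, only some of which respond to acute tissue stress, was read as well. The part of tissue stress in its changes was not tested. In TRAMP prostates at 24 weeks 1 of 13 rose and 4 fell, against 23% and 22% of all tested genes, with Hspa5 at 441.3 FPKM in TRAMP and 876.4 FPKM in wild type prostates (-0.997) and Dnajb1 at 24.5 and 16.6 FPKM (0.52). At 16 weeks 3 rose and 1 fell, against 18.1% and 15.4% of all tested genes. In the tumor 1 rose, Hspb1 (0.77), and 0 fell, against 5.59% and 6.17%. In the 5 replicate pairs the summed FPKM of the list was higher in the library with more Fos in 3.

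Across the 12 libraries, log2(FPKM + 1) of Egr1 and Atf3 ran most closely together of the 36 pairs of tested members, at Pearson r = 0.947, followed by Junb and Ier3 (0.868), Fos and Fosb (0.842), Jun and Egr1 (0.833) and Fos and Egr1 (0.817). The libraries share groups, so these values describe them and carry no test. In the tumor Ier3 stood at 66.2, Junb at 150.8 and Jun at 60.3 FPKM, against at most 16.9, 105.3 and 39.3 FPKM elsewhere. Values of r for these genes can therefore lean on the tumor, and none was computed without it. Nab2 and Ier2 had no r above 0.458 with another member. The gene most like the mean standardised profile of the 9 members was Dusp1, an early gene that encodes a MAP kinase phosphatase (r = 0.899), with Eva1b (0.898), Calm2 (0.896), Tmcc3 (0.894) and Tmem11 (0.887) next. Among non-members Egr2 was the most like Egr1 (0.914) and also Atf3 (0.904), Bcl3 (0.964) and Socs3 (0.963) were the most like Junb, and Abcc5 (0.938) was the most like Fos. Nr4a3 was the third most like Fosb (0.859), Tnfaip8 the most like Jun (0.978) and Chrnb1 the most like Ier3 (0.990).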

How the data were processed

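RNA of 12 mouse libraries in 7 groups, 11 of prostate and 1 of a tumor, was sequenced. The authors deposited FPKM values, with no counts, in 1 file per library. HISAT2, Picard, featureCounts, DESeq2 and the mm10 build are named, without versions or roles, per the submitters' processing notes. Annotation, strand setting and library total: not given in the sources used here. Values were used as deposited.

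The filter of 0.5 FPKM, on the mean over all libraries, left 13375 genes. Their log2(FPKM + 1) was fitted with limma 3.58.1 (R 4.3.3), one mean per group, leaving 5 residual degrees of freedom. Gene variances were shrunk towards a trend on expression level. Tests were two-sided, Benjamini-Hochberg adjustment ran over the whole tested set, and an adjusted p under 0.05 was a call. Fold changes on this scale understate changes of low genes. The fit was tested on simulated data.

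There were 8 comparisons. Alternatives changed the pseudocount, filter, scaling, variance trend, libraries fitted, replicates, the wild type control at 16 weeks and, for PEITC at 16 weeks, the replicate block. By rule the text may name all 10 members, per further list and comparison the 4 called genes that changed most, the 3 genes most like each member and the 5 most like their mean profile. Members and lists were chosen with earlier results of these data known. Figures used Python 3.11.15 and matplotlib 3.10.9.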

Additional observations from a re-analysis of the deposited data

How the results depend on the processing

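Of 892 log2 fold changes of members recomputed under the alternatives, 834 kept their direction and their side of the threshold and 38 changed sign. With the sign kept, 11 lost a call and 9 gained one. Fosb at 16 weeks against the 24-week wild type libraries, counted as a change of sign, also lost its call (limma adjusted p = 0.352). For TRAMP against wild type at 24 weeks, 2 members passed with no filter (adjusted p was 0.0776 for Fos and 0.0561 for Junb, with more genes tested), and 1 to 4 passed with single replicates left out. At 16 weeks 2 passed with a pseudocount of 5 (Fos added), 0 with a mean of at least 2 FPKM (Fosb fell under the filter), 2 with quantile normalization (Ier3 added), 2 to 3 without single replicates and 3 against the 24-week wild type libraries, where Fos was at 1.34, Fosb at 0.21, Junb at 0.20 and Ier3 at 0.0584. For the tumor 2 passed with no filter, Ier3 and Fosl1 (log2 fold change 0.28), and 0 with only the groups compared. Fosl1 lay at 0 to 0.0430 FPKM in the other libraries. Its spread was therefore that of values near the floor, and its call rests on the tumor library alone. The cause was not tested where none is given.

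Quantile normalization gave -0.0134 for Fosb between the ages and -0.00823 for Egr1 in the difference of PEITC effects. Without single replicates, log2 fold changes for TRAMP at 16 weeks ran from -0.46 to 0.12 for Junb, -0.22 to 0.995 for Egr1 and -0.0697 to 1.18 for Atf3. For PEITC at 24 weeks they ran from -0.70 to 0.18 for Fos and -0.000805 to 0.24 for Fosb. For PEITC at 16 weeks they ran from -0.48 to 0.0756 for Jun, -0.00589 to 0.57 for Junb, -0.14 to 1.08 for Egr1, -0.35 to 0.90 for Atf3 and -0.28 to 0.16 for Ier3. Between 24 and 16 weeks they ran from -0.0278 to 0.85 for Fos, -0.11 to 0.26 for Fosb, -0.18 to 0.37 for Jun, -0.82 to 0.39 for Egr1, -0.94 to 0.31 for Atf3 and -0.0804 to 0.21 for Ier2. The difference of PEITC effects ran from -0.24 to 0.32 for Jun, -0.60 to 0.61 for Egr1, -0.78 to 0.47 for Atf3 and -0.28 to 0.00764 for Ier2, and that of TRAMP effects from -0.51 to 0.74 for Atf3 and -0.11 to 0.18 for Ier2.

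Over all genes, calls with only the groups compared were 2198 in place of 4490 for TRAMP at 16 weeks and 0 in place of 1573 for the tumor. Without TRAMP control replicate 2 at 24 weeks they were 160 in place of 0 for PEITC at 24 weeks and 260 in place of 1 for age. The TRAMP difference had 27 to 297 in place of 49, and the PEITC difference 0 to 124 in place of 1. With the replicate block, possible for PEITC at 16 weeks alone, 0 members and 0 genes passed. Deviations of same-numbered libraries correlated at -0.31 there. With 2 libraries per group this is 1 correlation between 2 differences, so it cannot show whether the numbers pair the samples. Depth in reads is unknown.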
